A study of Mus musculus with 8 samples.

Results

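The miR-322 cluster of the mouse X chromosome, which also encodes miR-503, miR-351, miR-542, miR-450a and miR-450b, was followed in small RNA libraries of 3A cells, a non-tumorigenic murine hepatocyte line, and of the extracellular vesicles (EVs) that these cells release. Its members were chosen by name as 9 mature miRNAs out of the 1978 mouse miRNAs counted, namely mmu-miR-322-5p, mmu-miR-322-3p, mmu-miR-503-5p, mmu-miR-503-3p, mmu-miR-351-5p, mmu-miR-542-3p, mmu-miR-542-5p, mmu-miR-450a-5p and mmu-miR-450b-5p. The study asked how silencing of PCBP2, a poly(C)-binding protein, affects the division of miRNAs between cells and EVs. There were 8 libraries in 4 conditions, with 2 biological replicates per condition. The cell shCTR and EV shCTR libraries came from 3A cells with a scrambled shRNA, and the cell shPCBP2 and EV shPCBP2 libraries from 3A cells with an shRNA against PCBP2. The knockdown was made by retroviral infection and selection with puromycin, and EVs were purified by ultracentrifugation from medium conditioned for 72 h with EV-depleted bovine serum. The PCBP2 transcript is not read by small RNA libraries, so the silencing could not be checked here.

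Clustered miRNAs are cut from a shared primary transcript. Each hairpin yields a 5p and a 3p strand, and usually one of them is loaded into Argonaute and accumulates while the other is degraded. The seed, bases 2 to 8 of the mature strand, pairs with target mRNAs, so miRNAs with the same seed can address many of the same targets. miR-322 (the mouse counterpart of human miR-424) and miR-503 belong to the extended miR-15/16 group, whose targets include cyclins and other drivers of the cell cycle, and miR-351-5p has the seed of the miR-125 family.

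The 7 hairpins of the cluster lie on the minus strand at chrX:53047997-53054349 (GRCm38), within 6353 bases, in the order Mir322, Mir503, Mir351, Mir542, Mir450-2, Mir450-1 and Mir450b. The noncoding gene C430049B03Rik lies just upstream of the Mir322 hairpin on the same strand. The annotated lincRNA Gm28730 fills part of the gap between Mir351 and Mir542. The mature sequences of all 9 members were found in RefSeq (GRCm38.p6) and are shown because the members differ in seed and, as reported below, in their reads. Capitals mark the seed.
mmu-miR-322-5p: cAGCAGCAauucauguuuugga
mmu-miR-503-5p: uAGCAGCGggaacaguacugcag
mmu-miR-351-5p: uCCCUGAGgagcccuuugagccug
mmu-miR-322-3p: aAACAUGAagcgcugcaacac
mmu-miR-503-3p: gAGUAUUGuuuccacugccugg
mmu-miR-542-3p: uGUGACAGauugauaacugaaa
mmu-miR-542-5p: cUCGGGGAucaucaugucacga
mmu-miR-450a-5p: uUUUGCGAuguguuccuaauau
mmu-miR-450b-5p: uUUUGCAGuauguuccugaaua

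The seeds of miR-322-5p and miR-503-5p share bases 2 to 7 and differ at base 8. Over the whole mature strands, the seed included, 11 of 22 aligned positions are the same. miR-450a-5p and miR-450b-5p share 15 of 22 positions, and their first difference is at base 7. miR-450a-5p is encoded identically by Mir450-1 and Mir450-2, so its reads cannot be assigned to either hairpin. The study examined the core CELL motif, a short sequence described for miRNAs kept in cells, with AUUA or AUUG as its letters. It reports that PCBP2 binds where this motif stands beside hEXO, the motif of the protein SYNCRIP, and not with either motif alone. It also used an extended CELL motif. The extended motif and hEXO were not searched here. Searched on the mature strand alone, these letters were found in 2 of the 9 members, AUUG from base 5 of miR-503-3p and from base 9 of miR-542-3p. They were found in 149 of the 1679 mouse miRNAs of the table with a RefSeq sequence (8.87%) and in 25 of 156 among those tested over all libraries (16.0%). miR-322-5p, miR-503-5p and miR-351-5p did not hold the letters. Of all 13 mature arms of the cluster 5 (38.5%) held them, including miR-450a-1-3p, miR-450a-2-3p and miR-450b-3p, each with AUUG from base 1.

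Between 26391248 and 38166798 reads were counted per library, and the nematode miRNA cel-miR-39, added as a spike-in, took most of them. Mouse miRNAs received 33.1% to 42.6% of the reads in cells and 1.62% to 2.42% in EVs. A level is given as reads per 1000000 spike-in reads, on a linear scale. The amount of RNA per library to which the spike-in was added is not given in the sources used here, so levels of cells and EVs are on a common scale only in relation to the spike-in. In bulk libraries fewer cells and less of a miRNA per cell cannot be told apart. The hepatocyte miRNA miR-122-5p was low in cells, with 356 to 485 reads, and had 795 to 2327 reads in EVs. Of 5 blood markers, the red-cell miR-451a and the leukocyte miR-142a-5p had 0 reads in all cell libraries. The summed level of these 5 markers was 12.5 to 15.9 in cell shCTR and 4.76 to 5.56 in cell shPCBP2, and in EVs 1409 to 1607 (shCTR) and 1205 to 1249 (shPCBP2). Their part in the EV values below was not tested.

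In shCTR cells the cluster was dominated by its first hairpin. All 13 mature arms of the 7 hairpins together had 110340 and 98656 reads, and miR-322-5p made up 69.0% ± 0.142 (SD, n = 2) of them. The members are 21 to 24 bases long, so reads were compared between members without a correction for length. The level of miR-322-5p was 4301 ± 29.6 (SD, n = 2), followed by miR-503-5p at 789 ± 4.07 and miR-351-5p at 341 ± 22.2. Next came miR-322-3p at 306 ± 2.79, miR-542-3p at 189 ± 3.17 and miR-450a-5p at 150 ± 0.592. miR-351-5p and miR-322-3p are neighbours in this order, and the lower miR-351-5p library, at 325, was still above both miR-322-3p libraries, at 308 and 304.

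The last 3 members were scarce in cells. miR-542-5p was at 8.71 ± 2.52 (SD, n = 2), miR-450b-5p at 7.49 ± 2.18 and miR-503-3p at 3.18 ± 1.80. The libraries of miR-542-5p, at 10.5 and 6.93, overlapped those of miR-450b-5p, at 5.95 and 9.02, so the order of these members is not settled by the replicates. The more abundant strand was the 5p strand for miR-322, miR-503, miR-351 and miR-450a and the 3p strand for miR-542 and miR-450b. Of the arms that are not members, miR-450b-3p was at 92.7 ± 15.8 (SD, n = 2) in shCTR cells and miR-351-3p at 21.8 ± 7.02. miR-450a-1-3p was at 20.7 ± 2.24 and miR-450a-2-3p at 0.604 ± 0.854. miR-450b-3p can share reads with the near-identical miR-450a-1-3p. In shCTR cells the mean levels of these more abundant strands fell in the order of the hairpins, from miR-322-5p at 4301 to miR-450a-5p at 150 and miR-450b-3p at 92.7. This order takes Mir450-2 and Mir450-1 together, since miR-450a-5p pools their reads, and the level from each of them is not known. The minor strand miR-503-3p departed from this order. miR-542-3p and miR-450a-5p, from hairpins 4862 and 5982 or 6105 bases downstream, exceeded it by over an order of magnitude.

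**Figure D1:**
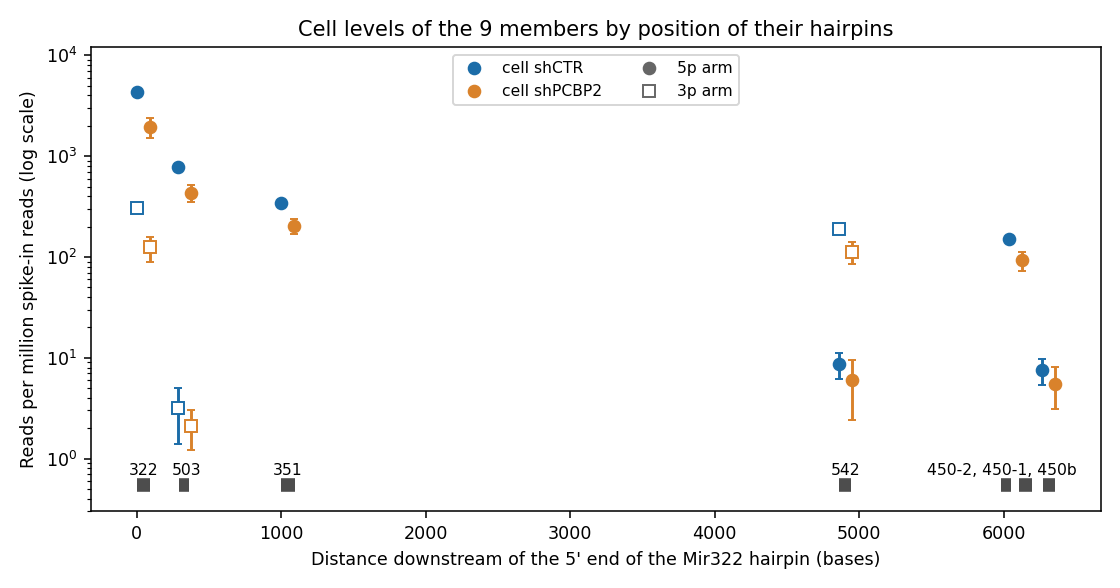
Mean level in cells (reads per 1000000 spike-in reads, log axis) of the 9 members against the position of their hairpins, in bases downstream of the 5′ end of the Mir322 hairpin. Circles are 5p arms, squares 3p arms, blue shCTR, orange shPCBP2, points of the groups are set apart sideways, whiskers give the SD of 2 libraries and grey bars the hairpins; the point of miR-450a-5p stands midway between its 2 hairpins. miR-322-5p lies highest, at 4301 in shCTR, and all 9 orange means lie below the blue ones, which with TMM factors or median-of-ratios size factors no longer holds for miR-450b-5p.

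In shPCBP2 cells the cluster was lower than in shCTR cells. Its 13 arms together were at 6231 ± 55.7 (SD, n = 2) in shCTR and at 3013 ± 672 in shPCBP2. As a share of the mouse miRNA reads, which does not use the spike-in, the cluster took 8550 ± 165 reads per 1000000 in shCTR and 5020 ± 142 in shPCBP2. The conditions did not overlap on either scale. The level of all mouse miRNAs together was 728955 ± 20550 in shCTR and 602356 ± 150913 in shPCBP2, and replicate 1 of shPCBP2 had the lower level of all 9 members.

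miR-322-5p had a level of 4280 and 4322 in the shCTR cell libraries and of 1630 and 2262 in the shPCBP2 cell libraries. Its opposite strand miR-322-3p had 308 and 304 in shCTR cells but 99.97 and 149 in shPCBP2 cells. miR-503-5p went from 792 and 786 to 373 and 490. For these strands both shPCBP2 libraries were below both shCTR libraries, and the same held for miR-351-5p, miR-542-3p and miR-450a-5p. miR-351-5p went from 325 and 356 to 178 and 226. miR-542-3p went from 191 and 186 to 93.6 and 133, and miR-450a-5p from 150 and 151 to 78.8 and 107. The scarce miR-542-5p, miR-450b-5p and miR-503-3p overlapped between the conditions. Thus 6 of 9 members were lower without overlap, where 49.1% of the 460 miRNAs tested in cells were.

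In a model of the 4 cell libraries alone, miR-322-3p and miR-322-5p fell in shPCBP2 cells, by 1.30 (SE 0.28, adjusted p = 0.00652) and 1.14 (SE 0.31, adjusted p = 0.0342) on the log2 scale (quasi-likelihood F test of edgeR, Benjamini-Hochberg adjusted over 460 miRNAs). These were 2 of 9 members, where 4.13% of all tested miRNAs were called lower and 0 higher (12 higher and 15 lower with TMM factors). miR-503-5p had a log2 difference of -0.87 (SE 0.28, adjusted p = 0.0828, edgeR), miR-351-5p of -0.75, miR-542-3p of -0.74 and miR-450a-5p of -0.70, and none of these passed. The differences of miR-542-5p, miR-503-3p and miR-450b-5p were -0.55, -0.59 and -0.43 with standard errors of 0.57 to 0.95, and that of miR-450b-5p turned to 0.012 with TMM factors and 0.037 with median-of-ratios size factors. The median over the members was -0.74, and over all 460 miRNAs it was -0.49, which moved to -0.02 with TMM factors. Relative to this shift both strands of miR-322 were still lower, since with TMM factors miR-322-5p had a log2 difference of -0.68 (adjusted p = 0.00971, edgeR) and miR-322-3p of -0.84 (adjusted p = 0.0115, edgeR).

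The calls in cells rested on few libraries. Without cell shPCBP2 replicate 2 there were 5 members called, and without any other cell library 0. In the model over all 8 libraries, whose common dispersion was 0.693 against 0.371 in cells alone, 0 of 5 members and 0.0% of 180 miRNAs were called in cells by edgeR, where 25 miRNAs had an unadjusted p under 0.05 and DESeq2 called 18, among them 3 members. There miR-322-5p had the same log2 difference of -1.14 (SE 0.34, adjusted p = 0.233, edgeR).

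In cells the balance between members was read from counts within a library. miR-322-5p had 5.41 and 5.50 reads per read of miR-503-5p in the shCTR cell libraries and 4.37 and 4.61 in the shPCBP2 cell libraries. Against miR-322-3p, its partner strand, it had 13.9 and 14.2 reads in shCTR cells but 16.3 and 15.2 in shPCBP2 cells. Against miR-351-5p it had 13.2 and 12.1 in shCTR cells but 9.16 and 10.0 in shPCBP2 cells. Against miR-450a-5p it had 28.5 and 28.6 in shCTR cells but 20.7 and 21.2 in shPCBP2 cells. The conditions did not overlap for any of these pairs. How many of all miRNAs were so separated against miR-322-5p was not counted. The share of miR-322-5p in the cluster reads went from 69.0% ± 0.142 to 64.5% ± 0.432 (SD, n = 2). When every library was scaled to its own miR-322-5p count, 0 of the 4 other testable members and 0.0% of 179 miRNAs were called between the cell conditions by edgeR, with 30 miRNAs at an unadjusted p under 0.05 and 11 called by DESeq2. The log2 differences relative to miR-322-5p were 0.28 (nominal 95% interval -0.69 to 1.25) for miR-503-5p and 0.40 (-1.12 to 1.92) for miR-351-5p. They were 0.45 (-1.80 to 2.69) for miR-450a-5p and -0.16 (-4.09 to 3.77) for miR-322-3p. The median over all 179 miRNAs on this scale was 0.65, and 150 of them had a positive value. The intervals use a normal approximation and are too narrow for so few libraries. These intervals leave room for changes of more than a doubling.

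In EVs 6 of 9 members were read, and 5 of them, all but miR-542-3p, had reads in at least 2 EV libraries and entered the tests. miR-322-5p was again the most abundant, with 2875 and 2104 reads in shCTR EVs but 758 and 1138 in shPCBP2 EVs. These were levels of 104 and 80.8 against 20.2 and 37.4, and the conditions did not overlap. miR-503-5p had 363 and 276 reads in shCTR EVs but 534 and 494 in shPCBP2 EVs, levels of 13.1 and 10.6 against 14.2 and 16.2. miR-351-5p had 128 and 118 reads in shCTR EVs but 278 and 187 in shPCBP2 EVs, levels of 4.61 and 4.53 against 7.40 and 6.15. For these 2 members, unlike miR-322-5p, both shPCBP2 libraries were above both shCTR libraries. The order was the same without the spike-in. As reads per 1000000 mouse miRNA reads, miR-503-5p had 528 (95% Wilson interval 476 to 585) and 499 (443 to 561) in shCTR EVs but 863 (793 to 940) and 982 (899 to 1072) in shPCBP2 EVs. On the same scale miR-322-5p went from 4181 and 3801 to 1225 and 2262. How many of all tested miRNAs were separated without overlap between the EV conditions was not counted. Of the 180 tested, 41 had a positive and 139 a negative log2 difference between shPCBP2 and shCTR EVs, relative to the spike-in. Reads carry no molecular identifiers, so intervals and floors cover counting error only.

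The other EV members were read unevenly. miR-322-3p had 208 and 261 reads in shCTR EVs but 139 and 0 in shPCBP2 EVs. These were levels of 7.49 and 10.0 against 3.70 and 0, and its conditions did not overlap. miR-450a-5p had 49 and 204 against 114 and 103, so its conditions overlapped. miR-542-3p had 167 and 0 in shCTR EVs and no read in shPCBP2 EVs. miR-503-3p, miR-542-5p and miR-450b-5p had 0 reads in all EV libraries.

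**Figure D2:**
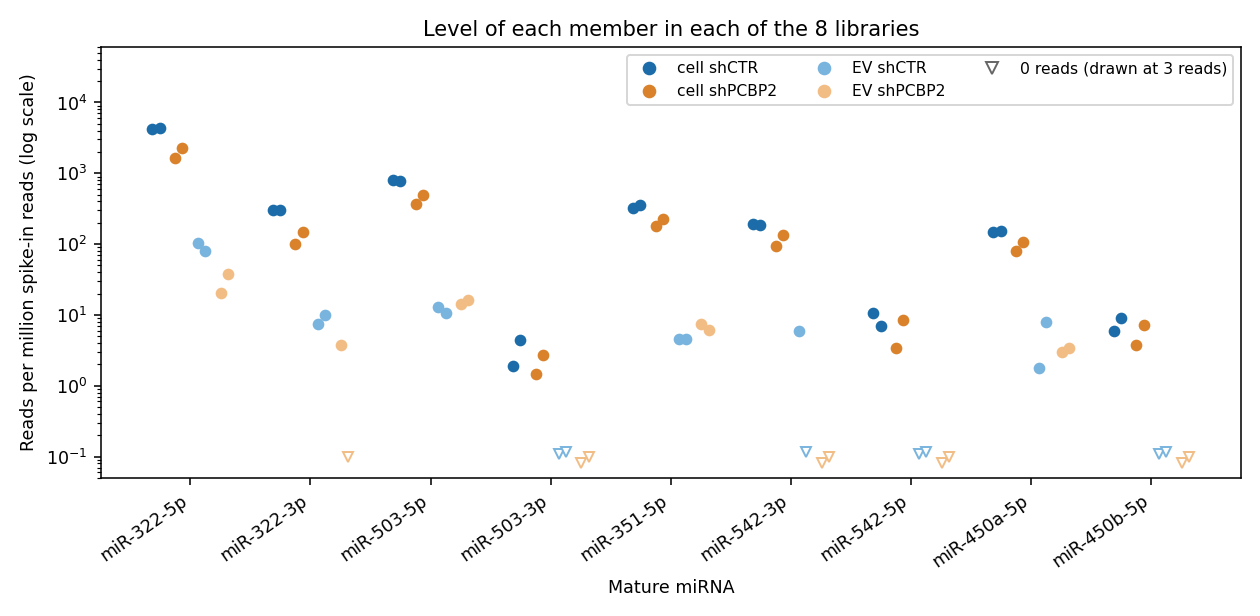
Level of each member (reads per 1000000 spike-in reads, log axis) in each of the 8 libraries, 1 point per library, coloured by condition; open triangles mark libraries with 0 reads and stand at the level of 3 reads. In cells (dark points) miR-322-5p, miR-322-3p, miR-503-5p, miR-351-5p, miR-542-3p and miR-450a-5p were lower in both shPCBP2 libraries. In EVs (light points) miR-322-5p and miR-322-3p were lower in both shPCBP2 libraries, the latter with 0 reads in 1 of them. There miR-503-5p and miR-351-5p were higher in both shPCBP2 libraries. How many other miRNAs were so separated in EVs was not counted.

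In EVs miR-322-5p fell in shPCBP2, by 1.68 on the log2 scale (SE 0.35, adjusted p = 0.0396, edgeR over 180 miRNAs). It was the only one of the 5 tested members to be called, where 5.56% of the tested miRNAs were called lower. The median of all tested miRNAs was -0.54, and between -0.23 and -0.02 with the 3 other scalings. miR-503-5p had a log2 difference of 0.36 (SE 0.34, adjusted p = 0.682, edgeR) and miR-351-5p of 0.57 (SE 0.43, adjusted p = 0.593, edgeR). Neither passed, with nominal 95% intervals from -0.30 to 1.02 and from -0.28 to 1.42. The intervals use a normal approximation and are too narrow for so few libraries. miR-450a-5p had -0.58 (SE 0.80) and miR-322-3p -2.24 (SE 1.86), with no call. The direction of miR-322-5p held in all of 16 alternatives, between -2.19 and -1.20, but its adjusted p ranged from 9.35e-05 to 0.186 and was under 0.05 in 3 of them. It missed the threshold with the other 3 scalings (0.0690 to 0.121) and without any single library except EV shPCBP2 replicate 2.

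**Figure D3:**
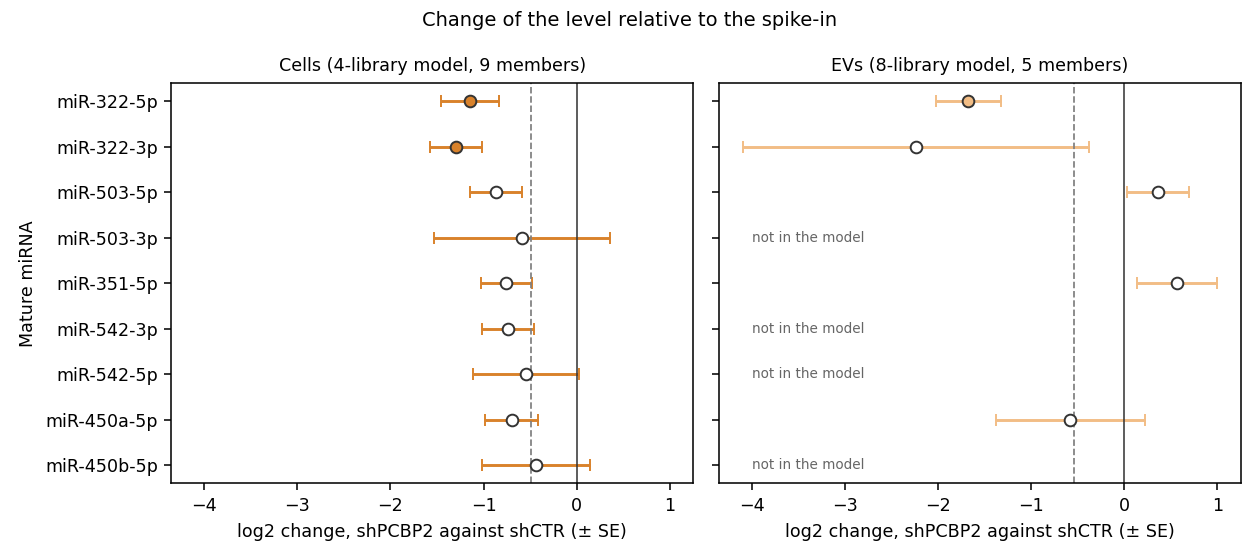
Log2 change of the level in shPCBP2 against shCTR, with its standard error, in cells (left, 9 members) and EVs (right, 5 members). Filled points had an adjusted p under 0.05 (edgeR), solid lines mark no change and dashed lines the median of all tested miRNAs, at -0.49 in cells and -0.54 in EVs. All members lie left of 0 in cells, where miR-450b-5p passes to 0.012 or 0.037 with other scalings, and in EVs miR-503-5p and miR-351-5p lie right of 0, at 0.36 and 0.57.

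Counts within a library give the balance between members without the spike-in. miR-322-5p had 7.92 and 7.62 reads per read of miR-503-5p in shCTR EVs but 1.42 and 2.30 in shPCBP2 EVs. Against miR-351-5p it had 22.5 and 17.8 in shCTR EVs but 2.73 and 6.09 in shPCBP2 EVs. In both cases all 4 EV values lay outside the range of the 4 cell libraries, above it in EV shCTR and below it in EV shPCBP2. The ratio of miR-503-5p to miR-351-5p stayed between 1.92 and 2.84 in all libraries. Against miR-450a-5p the shCTR EVs had 58.7 and 10.3 and the shPCBP2 EVs 6.65 and 11.0, where the conditions overlapped. The share of miR-322-5p in the cluster reads was 72.5% ± 2.09 (SD, n = 2) in EV shCTR and 44.4% ± 4.03 in EV shPCBP2. That of miR-503-5p went from 9.33% to 24.9% ± 6.20 and that of miR-351-5p from 3.64% to 11.5% ± 5.29.

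Scaled to miR-322-5p, miR-503-5p rose 4.42-fold in EV shPCBP2 (log2 2.14, SE 0.52, adjusted p = 0.0253, edgeR over 179 miRNAs) and was the only one of the 4 other tested members to be called. miR-351-5p had a log2 difference of 2.40 (SE 0.82, adjusted p = 0.0605, edgeR), miR-450a-5p of 1.08 (SE 1.16) and miR-322-3p of -0.10 (SE 2.01). On this scale 31.3% of all tested miRNAs were called higher, with a median of 1.33, since the count of miR-322-5p enters the value of every other miRNA on this scale. miR-503-5p lay above that median. Over 12 alternatives its log2 difference stayed between 1.75 and 2.45 and its adjusted p was under 0.05 in 4.

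**Figure D4:**
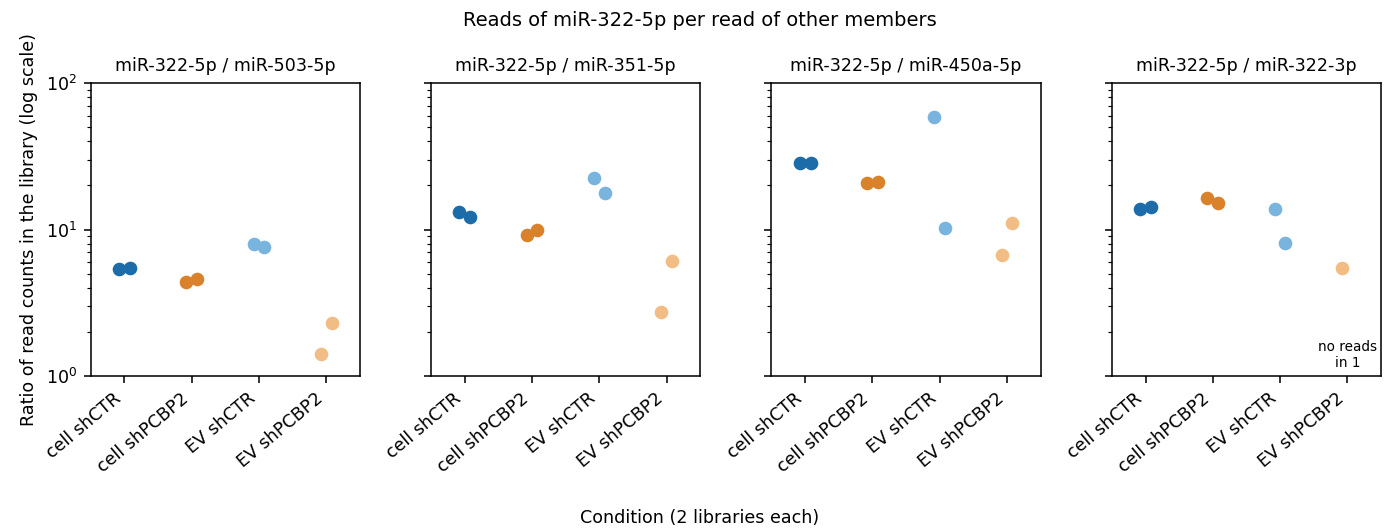
Reads of miR-322-5p per read of miR-503-5p, miR-351-5p, miR-450a-5p and miR-322-3p within each library (log axis), 2 libraries per condition. In EV shPCBP2 the ratio to miR-503-5p was 1.42 and 2.30, below the other 6 libraries, and 1 of these libraries had no miR-322-3p reads.

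The change of the EV/cell ratio, that is the difference between the effect in EVs and the effect in cells, is the measure the study used for the division of miRNAs. At the adjusted p used here it was not called for any of the 5 tested members, where 2.22% of 180 miRNAs were called (1 higher and 3 lower, or 4 higher and 2 lower with the total miRNA count). The study's volcano plot used a looser cut on the p-value, with no adjustment stated, and a least log2 change. For miR-503-5p the change was 1.23 (SE 0.48, adjusted p = 0.434, edgeR, unadjusted p = 0.0410) on the log2 scale. For miR-351-5p it was 1.32 (SE 0.61, adjusted p = 0.602, edgeR, unadjusted p = 0.0736). An unadjusted p under 0.05 was found for 17 of the 180 miRNAs. For miR-322-5p it was -0.53 (SE 0.48, adjusted p = 0.992, edgeR), for miR-322-3p -0.94 (SE 2.51) and for miR-450a-5p 0.12 (SE 1.14). With DESeq2, 2 members were called, miR-503-5p (adjusted p = 0.0120) and miR-351-5p (adjusted p = 0.0124), each with the same log2 value as in edgeR. Taken relative to miR-322-5p, the change was 1.86 (SE 0.71, adjusted p = 0.301, edgeR) for miR-503-5p and 2.00 (SE 1.11, adjusted p = 0.562, edgeR) for miR-351-5p. On that scale the median over all 179 miRNAs was 0.62. Of these miRNAs edgeR called 0.0%, with 23 at an unadjusted p under 0.05, and DESeq2 called 8. The fall of miR-322-5p in EVs beside its fall in cells was therefore not shown to differ in size.

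Between EVs and cells, the log2 differences of the tested members were -6.22 to -4.82 relative to the spike-in. In shCTR, miR-322-5p was 46.7-fold lower in EVs, miR-503-5p 66.6-fold, miR-351-5p 74.4-fold and miR-450a-5p 31.3-fold, and these 4 of 5 members were called, where 59.4% of 180 miRNAs were called lower. miR-322-3p had a log2 difference of -5.13 (SE 2.12, adjusted p = 0.0729, edgeR). In shPCBP2 all 5 were called (4 without any one cell library), where 60.0% were, with miR-322-5p 67.6-fold and miR-503-5p, miR-351-5p and miR-450a-5p 28.3-fold, 29.8-fold and 28.8-fold lower. The median of all tested miRNAs in shCTR was -4.93, and it was -0.17 with TMM factors, where 42 miRNAs were called higher and 40 lower in place of 12 and 107. With the total miRNA count the differences of miR-450a-5p in shCTR (0.090) and of miR-503-5p, miR-351-5p and miR-450a-5p in shPCBP2 (0.35, 0.28 and 0.33) turned positive. Relative to miR-322-5p, none of the other 4 members was called between EVs and cells in shCTR, where 31.3% of 179 miRNAs were called in either direction, and the values were -0.51 (SE 0.50) for miR-503-5p and -0.65 (SE 0.78) for miR-351-5p.

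For the members with 0 reads in some or all EV libraries the counts set limits. At the EV/cell ratio of miR-322-5p in the same condition, miR-542-3p would have had 112 and 105 reads in shCTR EVs but 62.9 and 50.9 in shPCBP2 EVs, where 167, 0, 0 and 0 were counted. With a floor of 3 reads per library, its mean level in shPCBP2 was at least 1267-fold lower in EVs than in cells, a bound that covers counting error only. On the same basis miR-542-5p would have had 2.69 to 5.18 reads per EV library and miR-450b-5p 2.50 to 4.46, and at the EV/cell ratio of miR-503-5p up to 7.90 and 7.35. Both had 0 reads in all 4 EV libraries. With the floor of 3 reads this would put their level in shCTR at least 78.0-fold and 67.1-fold lower in EVs than in cells. miR-503-3p would have had at most 2.80 reads per EV library on either basis, under the floor, so a level at these ratios was not detectable at this depth. Among the 23 EV counts above 0 of the cluster's 13 arms the smallest was 48. Over all miRNAs, 3.68% of the EV counts above 0 were between 1 and 40, against 42.3% in cells, so few low EV counts were recorded for any miRNA. Whether a 0 in an EV library stands for no molecules was not tested. The bounds above therefore hold only if EV counts near the floor are recorded.

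miRNAs outside the cluster with the same seed as a member were compared next. Seeds could be read for the 1679 mouse miRNAs with a RefSeq sequence. Among these the seed of miR-322-5p is shared by 9 others, of which 4 could be tested over all libraries, and that of miR-351-5p by 4, of which miR-125b-5p and miR-125a-5p could be tested. None of the others had the seed of miR-503-5p. In EVs miR-16-5p and miR-15b-5p, the most abundant with the seed of miR-322-5p, had log2 differences of -0.37 (SE 0.23, adjusted p = 0.467, edgeR) and -0.59 (SE 0.29, adjusted p = 0.376, edgeR) between shPCBP2 and shCTR. In the 4 cell libraries they had -0.07 and -0.53. Scaled to miR-322-5p, 3 of these 4 miRNAs were called higher in EV shPCBP2, with miR-16-5p at 1.41 (adjusted p = 0.0240, edgeR), as were both miR-125b-5p and miR-125a-5p, at 1.41 and 1.52 (adjusted p = 0.0348 and 0.0253, edgeR). The medians of these groups were 1.26 and 1.47, beside 1.33 for all tested miRNAs, of which 31.3% were called higher. miR-125b-5p and miR-125a-5p had -0.44 and -0.32 in EVs, opposite in sign to miR-351-5p, and -0.70 and -1.003 in cells. With the spike-in scaling, 0 of the 6 were called in EVs, in cells or for the EV/cell ratio.

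The patterns of level over the 8 libraries placed miR-503-5p and miR-351-5p together. By Euclidean distance between log2 levels, each centred on its mean, miR-503-5p was the nearest of 179 miRNAs to miR-351-5p and the reverse, at 0.474. The next nearest to miR-503-5p were miR-374b-5p (0.932) and miR-20a-5p (0.974), and to miR-351-5p miR-374b-5p (0.859) and let-7f-5p (1.045). The nearest to miR-322-5p were miR-29a-3p (1.168), miR-28a-5p (1.204) and miR-29b-3p (1.24). Its cluster partners ranked lower in likeness to it, miR-503-5p 35th, miR-351-5p 48th, miR-450a-5p 53rd and miR-322-3p 106th. Counts entered with 2 reads added, and miR-322-3p, at a distance of 5.449, had 0 reads in EV shPCBP2 replicate 2. How far this library sets its rank was not tested. These distances describe 8 libraries and include the difference between cells and EVs.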

How the data were processed

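Small RNA of 3A cells and their EVs was sequenced with the cel-miR-39 spike-in added. Following the study's methods, the authors trimmed the reads with FastqToolkit 2.2.5, aligned the forward reads to miRBase 22.1 hairpins with mirPRo 1.1.4 and NovoAlign, and deposited raw read counts per mature miRNA, not normalized, in 1 table of 1980 rows, of which 2 belong to the spike-in. Counts above 999999 carry 6 significant digits. How reads that match several miRNAs were shared is not given in the sources used here. Near-identical arms can therefore share reads, as miR-450a-1-3p and miR-450b-3p, which differ at 2 of 22 positions. Groups and replicate numbers follow the sample titles. The sample descriptions number the shPCBP2 replicates differently. All 8 columns were used.

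In edgeR 4.0.16 (R 4.3.3) the library size was set in proportion to the spike-in reads. The quasi-likelihood test was fitted with compartment, shRNA and their interaction over the 180 miRNAs read (1 or more) in 2 or more libraries of cells and also of EVs. A model of the 4 cell libraries used 460 miRNAs with at least 10 reads in 2 of them. To compare members with each other, the whole table was refitted with library sizes proportional to the miR-322-5p count. p-values were adjusted over all miRNAs of a fit with the Benjamini-Hochberg method, with a threshold of 0.05. The study used DESeq2, and DESeq2 1.42.0 is an alternative here. Standard errors come from the F statistic. Intervals of log2 differences use the normal quantile with these errors, so they are narrower than the test with its few degrees of freedom. An exact permutation test of 2 libraries against 2 could not pass the threshold, and p-values measure the spread between these replicates. The steps were tested on simulated data. Ratios, shares and figures were made with Python 3.11.15, pandas 2.3.3, scipy 1.17.1 and matplotlib 3.10.9. Coordinates are those of GENCODE and RefSeq on GRCm38.

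The miRNAs named are the 9 members, the 4 other arms of their hairpins (by counts), the 2 most read tested miRNAs outside the cluster per seed shared with miR-322-5p, miR-503-5p or miR-351-5p, and the 3 nearest in level pattern to each of these. Markers of hepatocytes and blood are given by their counts. The members and lists were chosen with earlier results of these data known.

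Alternatives were the total miRNA count, TMM factors and median-of-ratios size factors as scalings, other filters on low counts, DESeq2, the replicate number as a block, only the libraries compared, and each library left out in turn.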

Additional observations from a re-analysis of the deposited data

Results flagged for a closer look

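Arms of the same hairpins outside the 9 members gave reads in single EV libraries, 2 of them in shPCBP2 where both shCTR EV libraries had 0. miR-450b-3p had 0 and 437 reads in the EV shPCBP2 replicates, against 1452 and 1634 in cell shCTR and 978 and 1465 in cell shPCBP2. At the EV/cell ratio of miR-322-5p, 31.0 to 55.1 reads per EV library would have been counted. miR-351-3p had 0 and 48 reads in the EV shPCBP2 replicates, against 144 to 477 in the cell libraries. Both signals came from EV shPCBP2 replicate 2 alone, and the difference was not tested. The opposite was seen for miR-450a-2-3p, with 97 reads in EV shCTR replicate 1, 0 in the other EV libraries and 0 to 19 in the cell libraries. The sequences of miR-450b-3p and miR-450a-1-3p differ at 2 of 22 positions, and how shared reads were assigned is not given in the sources used here.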

How the results depend on the processing

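Of 674 log2 values of members recomputed under the alternatives, 655 kept their direction. In shPCBP2 against shCTR EVs, 1 member was called, and 0 with the total miRNA count, TMM factors, median-of-ratios size factors, no filter or only the 4 EV libraries. Leaving out each library gave 0 to 1, and all miRNAs called went from 13 to 27 with DESeq2, 7 with no filter or 10 reads in every library, and 1 with only the 4 EV libraries. In EVs against cells, 4 (shCTR) and 5 (shPCBP2) members were called, 1 and 1 with each of the 3 other scalings, 7 and 9 with no filter, and 4 to 5 without a library in both. In the 4 cell libraries 2 were called, 0 with 1 read in 2 libraries as the filter (4 miRNAs called in place of 19), 5 with DESeq2 (43 called) and 0 to 5 without a library. Over all libraries 0 were called in cells, 1 with 10 reads in every library (8 called in place of 0), 3 with DESeq2 (18 called) and 5 with only the 4 cell libraries (39 called). For the EV/cell ratio 0 were called, 2 with DESeq2 (14 called in place of 4) and 0 to 1 without a library, the 1 without EV shPCBP2 replicate 1. Relative to miR-322-5p, 1 was called in EVs, 0 with no filter, 2 with 10 reads in every library, 2 with DESeq2 and 0 to 3 without a library, with 3 and 2 without EV shPCBP2 replicates 1 and 2 and 0 without any other. For the EV/cell ratio on that scale 0 were called and 0 to 2 without a library, the 2 without either EV shPCBP2 replicate. In shCTR EVs against cells on that scale 0 were called, and 2 with no filter. All miRNAs called for the EV/cell ratio were 13 with TMM factors, 0 with 10 reads in every library and 2 with median-of-ratios size factors. In EVs relative to miR-322-5p they were 15 with no filter in place of 61, and for the EV/cell ratio on that scale 8 with DESeq2 in place of 0. In the 4 cell libraries they were 34 with the total miRNA count and 35 with 100 reads in every library.

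Directions turned as follows. For miR-450a-5p the EV/cell ratio change was -0.12 with TMM factors, -0.083 without cell shPCBP2 replicate 1 and -0.59 to 1.56 over all left-out libraries. Its EV difference ranged from -1.29 to 0.86, its ratio change relative to miR-322-5p from -0.14 to 2.37, and its EV difference from cells on that scale from -1.04 to 1.47. miR-322-3p ranged from -9.29 to 0.055 for the ratio change, from -14.43 to 1.06 for that change relative to miR-322-5p (-0.28 without EV shCTR replicate 1) and from -14.59 to 0.90 in EVs relative to miR-322-5p (0.34 without EV shCTR replicate 2). The lowest value of each range was called. These lowest values arise without EV shPCBP2 replicate 1, which leaves the condition at 0 reads, and are no bounds. In the 4 cell libraries miR-450b-5p was at 0.012 with TMM factors and 0.037 with median-of-ratios size factors, and miR-503-3p ranged from -1.10 to 0.15. With the total miRNA count, EVs against cells, miR-450a-5p was at 0.090 in shCTR, and miR-503-5p, miR-351-5p and miR-450a-5p at 0.35, 0.28 and 0.33 in shPCBP2. The cause of these changes was not tested.

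Whether the replicate numbers pair the samples is not known. The correlations of same-numbered deviations were -0.12 to 0.21. They cannot decide it, since the sample descriptions number the shPCBP2 replicates differently from the titles used here. With the replicate number as a block, 0 members were called in EVs, 0 in EVs relative to miR-322-5p, and miR-322-3p turned to -0.45 for the ratio change relative to miR-322-5p. All miRNAs called went from 13 to 2 in EVs, 4 to 1 for the ratio, 61 to 0 in EVs relative to miR-322-5p and 19 to 29 in the 4 cell libraries. Depth limits miR-503-3p, for which 0.95 to 1.89 reads per EV library would have been counted at the ratio of miR-322-5p, under the floor of 3 reads.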
